A study of Mus musculus with 12 samples.

Results

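The genes described here encode the receptors and co-receptors through which brain endothelial cells receive Norrin and the ligands Wnt7a and Wnt7b. They are 8 of the 21638 genes of a count table from adult mouse brain endothelium, namely Fzd4, Fzd6, Fzd8, Lrp5, Lrp6, Tspan12, Adgra2 and Reck. They were chosen by name, with earlier results of these data known. All 8 were in the table, and all 8 passed the minimum mean count of 10 over the libraries that was needed for testing. RNA came from cortical endothelial cells sorted as CD31+ CD41- CD45- by flow cytometry, a gate that keeps endothelium and removes platelets and leukocytes. There were 12 libraries in 4 groups of 3. The first group was wild type (WT). The second, Hdac2 ECKO, carried Hdac2lox/lox with Cdh5CreERT2, a Cre recombinase that tamoxifen activates under an endothelial promoter, so that the histone deacetylase gene Hdac2 was targeted in endothelium. The third, labelled Ezh2 ECKO, carried Ezh2lox/lox with the same Cre and targeted the Polycomb histone methyltransferase gene Ezh2, and its libraries are called Ezh2-labelled below. The fourth, beta-catenin GOF, carried Ctnnb1lox/lox with the same Cre, an allele the labels describe as constitutively activating beta-catenin. Mice of the 3 mutant groups received 5 doses of tamoxifen at 75 mg/kg, and brains were taken 2 months later. The labels do not say whether WT mice carried the Cre or received tamoxifen, give no age beyond adult, and do not say whether the libraries of a group came from separate animals, so the p-values measure only the spread between these libraries.

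In canonical Wnt signalling a Frizzled receptor and the co-receptor LRP5 or LRP6 bind a ligand together, after which beta-catenin escapes degradation and acts in the nucleus with TCF and LEF factors. In vessels of the brain and retina this pathway is known for driving angiogenesis and for inducing and keeping the blood-brain barrier. Norrin signals through FZD4 and LRP5 with the tetraspanin TSPAN12 as co-activator, while Wnt7a and Wnt7b need the adhesion GPCR ADGRA2, also called GPR124, and its partner RECK to reach Frizzled on endothelium.

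Promoter sequence was at hand for 3 of the 8 genes, from RefSeq on GRCm38.p6. Reck, the only gene of the 8 that passed the test in any comparison with WT, is shown beside Fzd4, which had the second smallest p of the 8 in Hdac2 ECKO, and Tspan12, which had the smallest absolute fold change there. Each sequence is the first 230 bases of a window that starts 250 bases before the RefSeq transcription start, read 5′ to 3′ on the gene's strand. Reck lies at chr4:43875280-43875509 on the plus strand, Fzd4 at chr7:89404116-89404345 on the plus strand and Tspan12 at chr6:21852554-21852783 on the minus strand. Capitals mark matches to a TCF/LEF core, searched as CTTTGA and CTTTGT on both strands.
Reck: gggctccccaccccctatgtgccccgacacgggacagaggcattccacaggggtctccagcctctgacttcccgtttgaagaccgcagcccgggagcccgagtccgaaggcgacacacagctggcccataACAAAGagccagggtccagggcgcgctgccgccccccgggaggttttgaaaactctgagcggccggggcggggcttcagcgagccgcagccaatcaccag
Fzd4: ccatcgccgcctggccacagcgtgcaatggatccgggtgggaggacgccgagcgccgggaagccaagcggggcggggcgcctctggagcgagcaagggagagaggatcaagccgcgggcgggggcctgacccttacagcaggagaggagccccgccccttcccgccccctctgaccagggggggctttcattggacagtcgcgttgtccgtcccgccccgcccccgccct
Tspan12: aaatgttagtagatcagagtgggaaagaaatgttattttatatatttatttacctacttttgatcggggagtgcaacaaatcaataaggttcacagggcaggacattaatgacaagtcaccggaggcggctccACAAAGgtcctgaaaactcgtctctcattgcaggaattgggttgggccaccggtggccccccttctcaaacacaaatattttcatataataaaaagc
Reck and Tspan12 each held 1 match, in both cases to CTTTGT on the opposite strand (ACAAAG as printed), 120 and 117 bases before the RefSeq start, and Fzd4 held none. Of 32851 promoters cut to the same length, 26.1% held CTTTGA or CTTTGT, so these matches are common. The GC-box core GGGCGG, which does not overlap either TCF/LEF core in these windows, was found 7 times in Fzd4, 2 times in Reck and 0 times in Tspan12, against 29.8% of all these promoters with at least 1. GC content was 73.0% in Fzd4, 67.4% in Reck and 41.3% in Tspan12. These are matches of letters, and no measurement of binding was used here.

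Libraries held 24781070 to 36109975 counts, and 3 counts corresponded to 0.0792 to 0.118 CPM, the counts per 1000000 of the library total after TMM scaling. Of the targeted genes, Hdac2 was at 129 ± 30.2 CPM in WT and 96.5 ± 15.2 in Hdac2 ECKO (SD, n = 3 each), and Ezh2 was at 6.75 ± 3.52 CPM in WT and 8.92 ± 3.36 in Ezh2-labelled libraries, which goes against that label. Ctnnb1 was at 654 ± 138 CPM in WT and 583 ± 109 in beta-catenin GOF. For all 3 targeted genes the values of mutant and WT overlapped. Hdac2 was as low in beta-catenin GOF (96.2 ± 10.1 CPM), where it was not targeted, so its level does not set Hdac2 ECKO apart. These counts cover whole genes, so they do not show whether the floxed exons were lost. All 10 endothelial markers, among them Cldn5, Pecam1 and Cdh5, were present in every group, with a summed level of 16570 to 22360 CPM in WT, 12670 to 15110 in Hdac2 ECKO, 16090 to 22060 in Ezh2-labelled libraries and 18930 to 21950 in beta-catenin GOF. On the first principal component of log2 CPM (41.1% of the variance), replicates 1 and 3 of Hdac2 ECKO and of the Ezh2-labelled libraries stood at 40.3 to 63.6, replicate 2 of these groups at 6.28 and −20.9, and the WT and beta-catenin GOF libraries at −55.5 to −13.3.

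In WT endothelium the 8 genes spanned a wide range when counts were divided by exon length. Tspan12 stood highest at 43.4 ± 9.12 CPM per kilobase, followed by Fzd6 at 32.1 ± 2.62 and Reck at 12.1 ± 3.57 (SD, n = 3). Fzd4 at 6.69 ± 0.675 and Lrp6 at 5.33 ± 0.606 CPM per kilobase came next. Adgra2 was at 1.24 ± 0.116, Fzd8 at 0.602 ± 0.312 and Lrp5 at 0.324 ± 0.105 CPM per kilobase. Transcripts of Fzd6 thus exceeded those of Fzd4, the Norrin receptor gene, and transcripts of Lrp6 exceeded those of Lrp5. Neighbours in this order did not overlap between libraries, except Fzd8 and Lrp5. The order was the same in beta-catenin GOF, where again only Fzd8 and Lrp5 overlapped. In the Ezh2-labelled libraries the order was also the same, but Tspan12 overlapped Fzd6, Reck overlapped Fzd4, and Fzd8 overlapped Lrp5. In Hdac2 ECKO Fzd6 (48.7 ± 10.1 CPM per kilobase) and Tspan12 (48.5 ± 12.8) could not be ordered, the other places were unchanged, and Fzd8 did not overlap Lrp5.

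**Figure D1:**
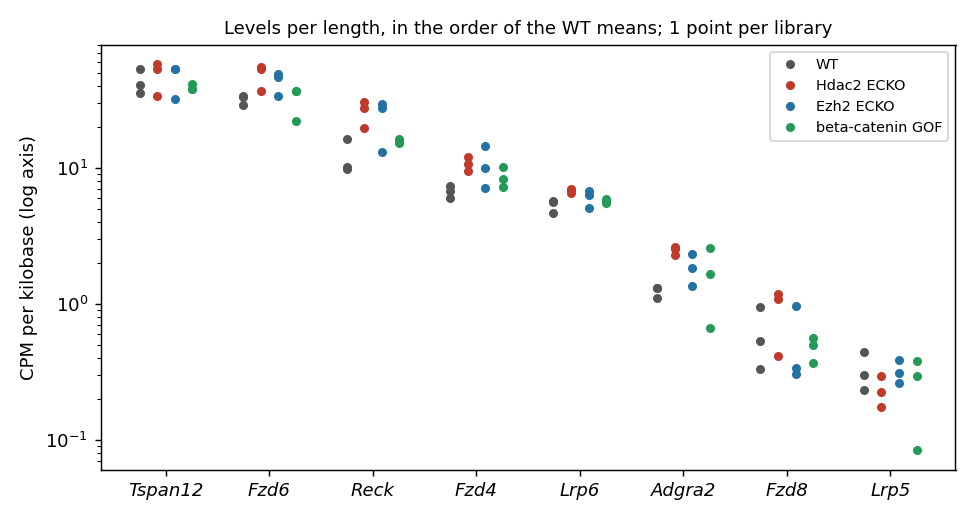
CPM per kilobase of merged exon on a log axis for the 8 genes, in the order of their WT means, with 1 point per library and a colour per group. Tspan12, Fzd6 and Reck stand above 9 CPM per kilobase in every library, while Fzd8 and Lrp5 stay under 1.2.

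Fzd4 (ENSMUSG00000049791.4, GRCm38 chromosome 7, 89404355 to 89413134, plus strand, 2 exons) encodes the receptor of Norrin, which also binds Wnt ligands. It was at 49.1, 40.1 and 45.7 CPM in WT replicates 1 to 3, at 80.3, 71.3 and 63.9 in Hdac2 ECKO, at 96.8, 47.4 and 67.4 in Ezh2-labelled libraries and at 48.7, 55.5 and 67.7 in beta-catenin GOF. All Hdac2 ECKO libraries stood above all WT libraries, whereas 1 library of each other mutant lay within the WT range. The log2 fold change was 0.68 in Hdac2 ECKO, with a standard error (SE) of 0.27, and did not pass the threshold of 0.05 (adjusted p 0.0988 by edgeR). It was 0.65 (SE 0.27, adjusted p 0.154) in Ezh2-labelled libraries and 0.35 (SE 0.27, adjusted p 0.912) in beta-catenin GOF. Without Ezh2-labelled replicate 2, Fzd4 passed in both (0.68, adjusted p 0.0406 in Hdac2 ECKO, and 0.87, adjusted p 0.0250 in Ezh2-labelled libraries). In that fit all calls rose from 1157 to 2765 genes in Hdac2 ECKO and from 129 to 2329 in Ezh2-labelled libraries. Fzd4 passed in no other fit with 1 library left out, and without Ezh2-labelled replicate 1 it was at 0.33 there (adjusted p 0.552). With all libraries and the trend of each with exon length and GC content removed, Fzd4 was at 0.34 in Hdac2 ECKO (edgeR adjusted p 0.335). In Ezh2-labelled libraries it was then at 0.41 (adjusted p 0.277). In such bulk RNA, fewer cells of a type and less RNA per cell cannot be told apart, which holds for every gene below.

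Fzd6 (ENSMUSG00000022297.15, chromosome 15, 39006034 to 39038188, plus strand, 9 merged exons) encodes a Frizzled known best from planar polarity. Its level was 161, 140 and 163 CPM in WT, 267, 179 and 258 in Hdac2 ECKO libraries, 225, 163 and 236 in Ezh2-labelled libraries and 178, 177 and 108 in beta-catenin GOF. Hdac2 ECKO and the Ezh2-labelled libraries lay above the WT range in every replicate, the lowest of the latter by a narrow margin, while replicate 3 of beta-catenin GOF lay below it. In Hdac2 ECKO the log2 fold change of 0.60 (SE 0.26) missed the threshold (edgeR adjusted p 0.127), as did 0.43 (SE 0.26, adjusted p 0.321) in Ezh2-labelled libraries. In beta-catenin GOF it was −0.002 (SE 0.26, adjusted p 0.999), and its sign changed with the processing.

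Fzd8 (ENSMUSG00000036904.6, chromosome 18, 9212163 to 9218136, plus strand, 1 exon) encodes a Frizzled that binds canonical Wnt ligands with LRP6. With 46 to 186 counts per library it stood at 3.19, 1.96 and 5.63 CPM in WT, 7.04, 2.48 and 6.45 in Hdac2 ECKO libraries, 2.01, 1.81 and 5.75 in Ezh2-labelled libraries and 2.18, 2.96 and 3.37 in beta-catenin GOF. All groups overlapped WT. The log2 fold changes of 0.57 (adjusted p 0.515 by edgeR, SE 0.58), −0.17 (SE 0.58, adjusted p 0.883) and −0.34 (SE 0.58, adjusted p 0.962) in this order of mutants were each smaller than their standard errors. At this depth and spread, a difference of that size was not detectable. Fzd6 made up 74.6% ± 0.658 of the summed per-length level of the mouse Frizzled genes in WT, Fzd4 15.5% ± 0.639 and Fzd8 1.38% ± 0.651 (SD, n = 3). The Fzd6 share was 74.8% ± 4.2 in Hdac2 ECKO, 74.5% ± 3.35 in Ezh2-labelled libraries and 71.2% ± 9.51 in beta-catenin GOF, and the ranges of all groups overlapped.

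Lrp6 (ENSMUSG00000030201.15, chromosome 6, 134446476 to 134566965, minus strand, 22 merged exons) and Lrp5 (ENSMUSG00000024913.16, chromosome 19, 3584828 to 3686564, minus strand, 23 merged exons) encode the paired low-density lipoprotein receptor-related co-receptors, of which LRP5 is the partner of FZD4 in Norrin signalling. Lrp6 was at 63.4, 78.4 and 76.8 CPM in WT, 95.3, 90.0 and 94.1 in Hdac2 ECKO libraries, 92.4, 69.5 and 86.5 in Ezh2-labelled libraries and 74.9, 77.5 and 80.2 in beta-catenin GOF. Hdac2 ECKO lay above WT in all replicates, and the other groups overlapped it. The log2 fold change of Lrp6 in Hdac2 ECKO was 0.35 (adjusted p 0.249 by edgeR, SE 0.21), and it turned to −0.36 (adjusted p 0.233) once the trend of each library with exon length and GC content was removed. Lrp6 has the longest exons of the 8 genes, 13672 bases, and over all genes the median log2 fold change in Hdac2 ECKO ran from −0.52 in the shortest of 5 equal bins of genes by length (up to 2419 bases) to 0.67 in the longest (from 7663 bases). The direction of Lrp6 therefore depends on that correction. In the Ezh2-labelled libraries its log2 fold change was 0.18 (SE 0.21, adjusted p 0.614), or −0.34 with the trend removed, and in beta-catenin GOF it was 0.09 (SE 0.21, adjusted p 0.975), or −0.08.

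Lrp5 was read with 28 to 135 counts per library. Its level was 2.91, 4.27 and 2.28 CPM in WT, 2.20, 1.70 and 2.84 in Hdac2 ECKO libraries, 2.53, 3.78 and 3.02 in Ezh2-labelled libraries and 3.72, 2.85 and 0.813 in beta-catenin GOF. Every group overlapped WT, and the lowest value was that of beta-catenin GOF replicate 3. Lrp5 was the only gene of the 8 with a negative fold change in Hdac2 ECKO, a log2 value of −0.49 (SE 0.58) that did not pass (edgeR adjusted p 0.579). It was −0.02 (SE 0.58, adjusted p 0.985) in Ezh2-labelled libraries and −0.36 (SE 0.58, adjusted p 0.959) in beta-catenin GOF. Per length, Lrp6 exceeded Lrp5 by 17.5 ± 5.75 times in WT, 30.8 ± 7.09 times in Hdac2 ECKO, 19.9 ± 6.48 times in Ezh2-labelled libraries and 34.7 ± 30.9 times in beta-catenin GOF (SD, n = 3), the last spread being set by a ratio of 70.2 in replicate 3. The lowest Hdac2 ECKO ratio, 23.6, lay just under the highest WT ratio, 24.0.

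Tspan12 (ENSMUSG00000029669.14, chromosome 6, 21771395 to 21852515, minus strand, 10 merged exons) encodes the co-activator that brings Norrin and FZD4 together. It stood at 177, 119 and 135 CPM in WT, 193, 113 and 176 in Hdac2 ECKO libraries, 178, 106 and 176 in Ezh2-labelled libraries and 125, 138 and 127 in beta-catenin GOF. The groups overlapped throughout, and replicates 1 and 3 of both knockout groups were near the highest WT library or above it. The log2 fold change was 0.16 (adjusted p 0.712 by edgeR, SE 0.27) in Hdac2 ECKO, 0.09 (SE 0.27, adjusted p 0.865) in Ezh2-labelled libraries and −0.14 (SE 0.27, adjusted p 0.965) in beta-catenin GOF. Its sign changed in each comparison when particular single libraries were left out.

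Adgra2 (ENSMUSG00000031486.15, chromosome 8, 27085583 to 27123436, plus strand, 19 merged exons) encodes GPR124, the adhesion receptor needed for Wnt7 signalling in brain vessels. It was at 6.39, 7.54 and 7.55 CPM in WT, 15.1, 13.2 and 14.5 in Hdac2 ECKO libraries, 10.6, 7.79 and 13.3 in Ezh2-labelled libraries and 9.59, 14.9 and 3.83 in beta-catenin GOF. The Hdac2 ECKO libraries were tightly grouped at about double the WT level and apart from it, and the Ezh2-labelled libraries also lay above WT, replicate 2 only just. The log2 fold change of 1.00 (SE 0.40) in Hdac2 ECKO nevertheless did not pass (edgeR adjusted p 0.102), and with the length and GC trend removed it was 0.96 (adjusted p 0.121). It was 0.56 (SE 0.40, adjusted p 0.395) in Ezh2-labelled libraries and 0.40 (SE 0.40, adjusted p 0.939) in beta-catenin GOF, where the 3 libraries lay on both sides of WT. In the GENCODE M21 annotation, 73 exon bases of Adgra2 overlap Brf2 on the other strand, a gene with a mean count of 305 here, so some reads may be assigned to either where strand was not used. Antisense genes also overlap 152 exon bases of Fzd6 (Gm26704) and 98 of Tspan12 (Gm30270).

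Reck (ENSMUSG00000028476.13, chromosome 4, 43875530 to 43944806, plus strand, 23 merged exons) encodes the membrane-anchored partner of GPR124, also known as an inhibitor of matrix metalloproteinases. Its promoter is printed above. Reck was at 47.3, 48.9 and 77.6 CPM in WT, 147, 93.6 and 132 in Hdac2 ECKO libraries, 131, 62.3 and 141 in Ezh2-labelled libraries and 78.4, 72.6 and 75.0 in beta-catenin GOF. Every Hdac2 ECKO library exceeded every WT library, Ezh2-labelled replicates 1 and 3 did so too, and the beta-catenin GOF libraries clustered around the highest WT value. Reck rose in Hdac2 ECKO by a log2 fold change of 1.10 (adjusted p 0.0429 by edgeR, SE 0.31), that is 2.15-fold. For the Ezh2-labelled libraries, a value of 0.95 (SE 0.31) missed the threshold (adjusted p 0.0955). It passed without their replicate 2 (1.24, adjusted p 0.0120) and without WT replicate 3 (1.22, adjusted p 0.0394). In these fits 2329 and 1143 of all genes passed, against 129 with all libraries. No other fit with 1 library left out passed, and without WT replicate 1 the value was 0.82 (adjusted p 0.3165). In beta-catenin GOF it was 0.38 (SE 0.31, adjusted p 0.918).

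**Figure D2:**
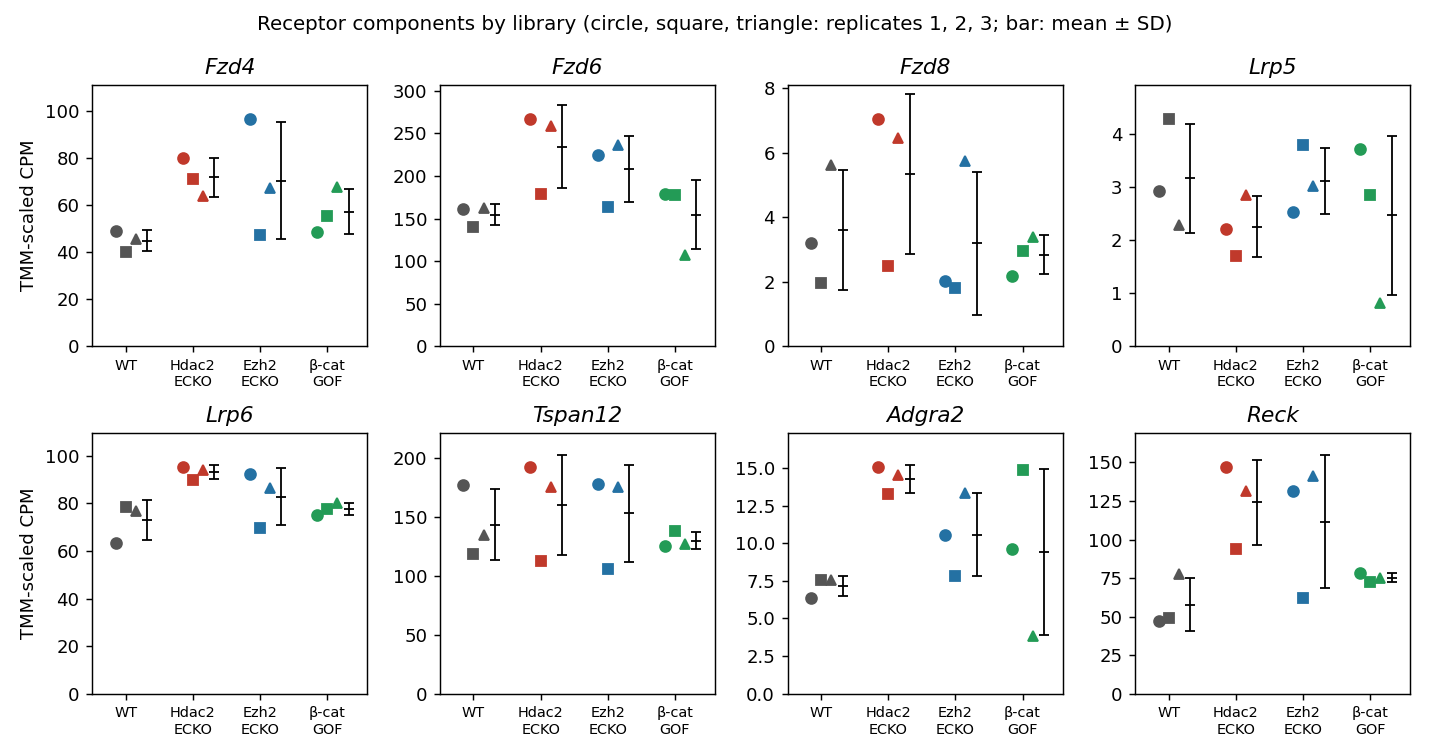
TMM-scaled CPM of each gene in the 12 libraries on linear axes from 0, by group, with symbols for replicates 1, 2 and 3 and a bar for the mean ± SD of 3 libraries. Reck reads 93.6 to 147 CPM in Hdac2 ECKO against 47.3 to 77.6 in WT, and replicate 2 of both knockout groups is low for most genes.

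The rise of Reck in Hdac2 ECKO kept its direction in every fit that was run but not always its call. It stayed between 0.94 and 1.37 on the log2 scale when each of the 12 libraries was left out in turn, and passed in 5 of those 12 fits. The call was lost without WT replicate 1 (adjusted p 0.159), WT replicate 2 (0.129), Hdac2 ECKO replicate 1 (0.174) or Hdac2 ECKO replicate 3 (0.148). It was also lost without any 1 of the beta-catenin GOF libraries (0.0565, 0.0608 and 0.0540 for replicates 1 to 3), which enter only through the shared estimate of the spread. With the length and GC trend removed, the log2 fold change was 1.00 (adjusted p 0.0501), just short of the threshold, and the other 9 settings that used all libraries or both groups kept the call.

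**Figure D3:**
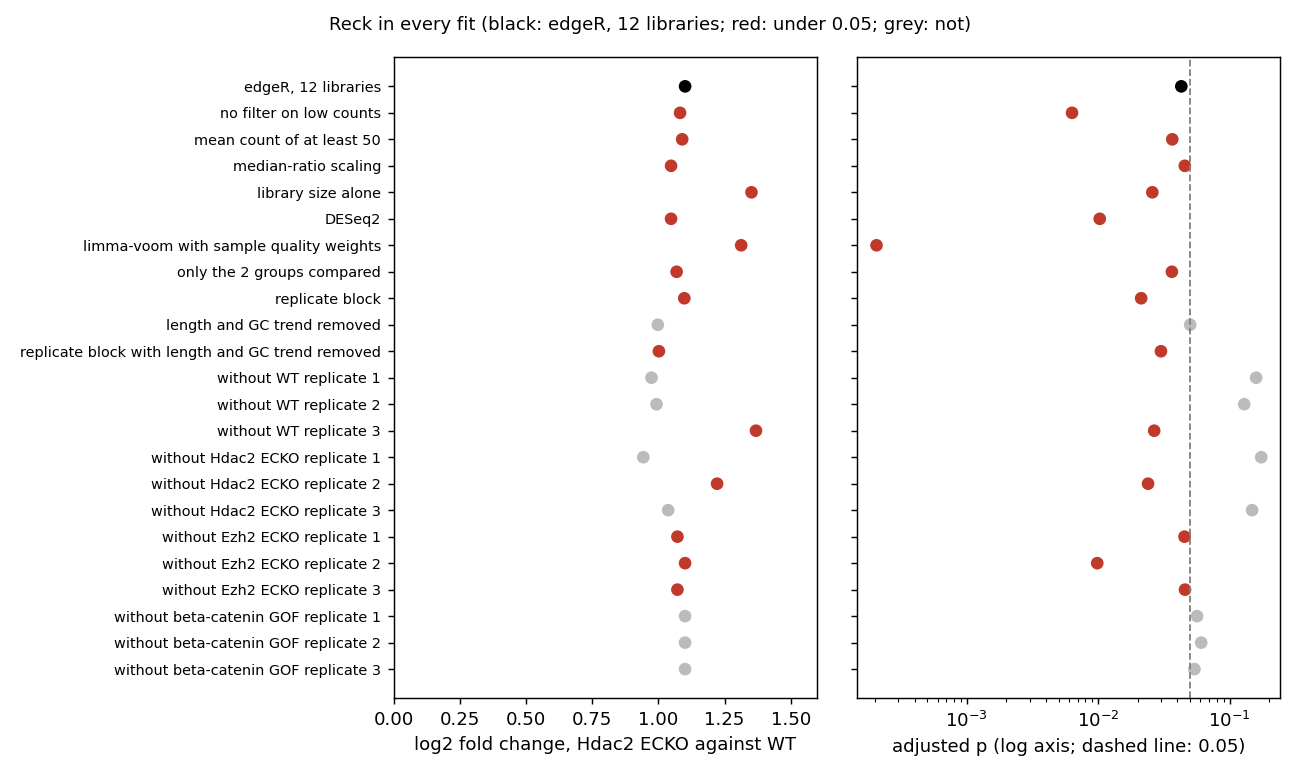
Log2 fold change of Reck in Hdac2 ECKO against WT (left) and its adjusted p on a log axis (right), 1 row per fit, with a dashed line at 0.05. The fold change stays between 0.94 and 1.37, while the adjusted p lies on both sides of the line, from 0.000205 to 0.174.

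Counted over the 8 genes, 7 had a positive fold change in Hdac2 ECKO and 1 (Reck) passed the threshold, where 9.20% of the 12577 genes tested passed. The values of 5 genes (Fzd4, Fzd6, Lrp6, Adgra2 and Reck) did not overlap WT, all on the high side, where 37.8% of all genes did not overlap in either direction. At an unadjusted p under 0.05 there were 4 of the 8 and 33.1% of all genes. DESeq2 called 1 of the 8 and 24.6% of the genes it tested, and limma-voom with sample quality weights called 5 of the 8 and 42.7% of all genes. With the length and GC trend removed, 0 of the 8 passed by edgeR, and 7.01% of all genes did. The median log2 fold change was 0.58 for the 8 and 0.10 for all genes tested, or 0.344 and 0.035 with the length and GC trend removed. With 1 library left out in turn, 0 to 2 of the 8 passed where 0 to 2765 of all genes did, against 1157 with all libraries, and no gene at all passed without WT replicate 1, WT replicate 2 or Hdac2 ECKO replicate 3. In the Ezh2-labelled libraries, 6 of the 8 were positive and 0 passed by edgeR, where 1.03% of all genes passed. At an unadjusted p under 0.05 there were 2 of the 8 (Fzd4 and Reck) and 24.7% of all genes. DESeq2 called 1 of the 8 and 10.4% of the genes it tested, limma-voom 2 of the 8 and 29.8% of all genes, and edgeR without a filter on low counts 1 of the 8 and 6.72% of all genes. All libraries gave 129 passing genes, leaving out Ezh2-labelled replicate 2 gave 2329, and leaving out WT replicate 1 or WT replicate 2 gave 2 each. For the Ezh2-labelled group, 2 genes (Fzd6 and Adgra2) did not overlap WT, against 22.0% of all genes, and the median was 0.31 against 0.05. With the length and GC trend removed, these medians were 0.257 and −0.001. In beta-catenin GOF 4 of the 8 were positive, and 0 passed by edgeR, DESeq2 or limma-voom, with 0 at an unadjusted p under 0.05. There the share of all genes that passed was also 0% by edgeR (763 genes, 6.07%, at an unadjusted p under 0.05, 38 genes, 0.303%, by DESeq2 and 26 genes, 0.207%, by limma-voom), none of the 8 was free of overlap where 12.7% of all genes were, and the medians were 0.04 and 0.01. The 3 comparisons share the WT libraries, and with 3 libraries a group an exact permutation test could not go below a p of 0.1.

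**Figure D4:**
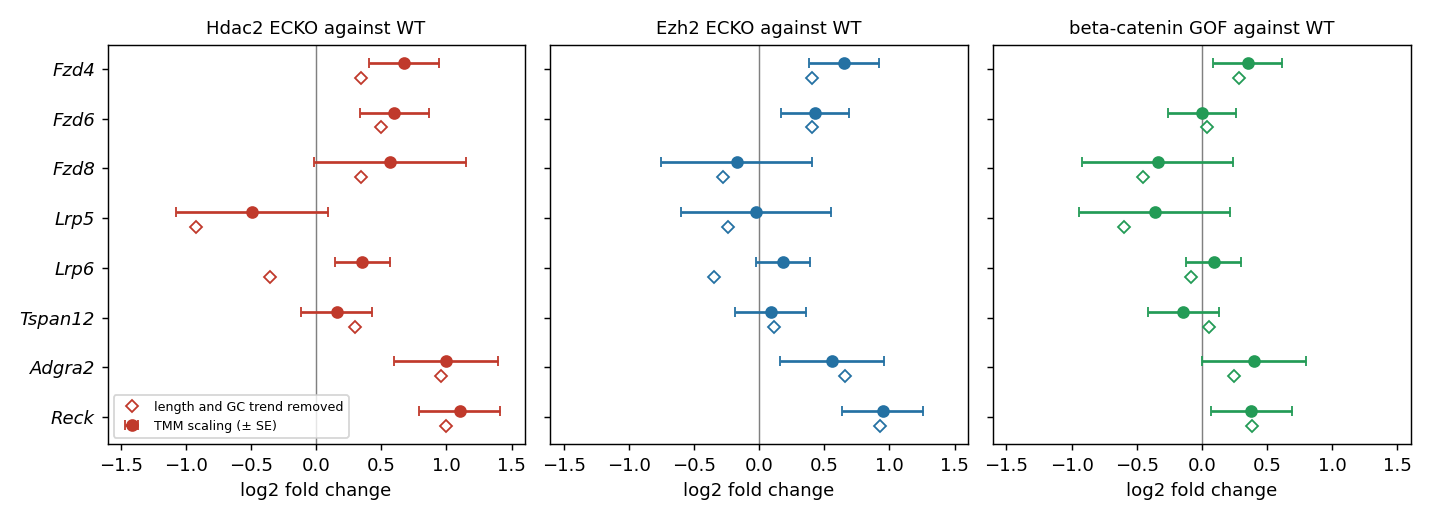
Log2 fold changes against WT for the 8 genes in the 3 mutant groups, as filled circles ± SE with TMM scaling and as open diamonds with the length and GC trend of each library removed. Reck and Adgra2 lie near 1 in Hdac2 ECKO on both, while Lrp6 moves from 0.35 to −0.36.

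Single libraries carried much of this spread. Hdac2 ECKO replicates 1, 2 and 3 had 7, 5 and 6 of the 8 genes above the highest WT value, against 39.5%, 29.6% and 38.3% of all genes. The Ezh2-labelled libraries had 6, 2 and 6 above it, against 35.8%, 29.7% and 36.4% of all genes, and beta-catenin GOF had 3, 3 and 2, against 29.1%, 23.0% and 23.3%. Replicate 2 was the lowest of its group for 6 of the 8 genes (Fzd6, Fzd8, Lrp6, Tspan12, Adgra2 and Reck) in both Hdac2 ECKO and the Ezh2-labelled libraries, the same libraries that lay apart on the first principal component. How often replicate 2 was the lowest over all genes was not counted. In beta-catenin GOF the lowest library was replicate 3 for Fzd6, Lrp5 and Adgra2, replicate 1 for Fzd4, Fzd8, Lrp6 and Tspan12, and replicate 2 for Reck. The labels name no batch, and the part of library quality in these values was not tested.

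Markers of other cells also differed in level between libraries. Of the receptor genes, only Reck was set beside a marker sum library by library, and its order followed the pericyte and smooth muscle sum in some groups only. The summed level of 10 pericyte and smooth muscle markers was 66.9 to 123 CPM in WT, 129 to 315 in Hdac2 ECKO, 56.6 to 72.8 in Ezh2-labelled libraries and 121 to 379 in beta-catenin GOF. All 9 tested had a positive fold change in Hdac2 ECKO, with a median of 1.40 on the log2 scale. The 4 that passed there by edgeR were Pdgfrb, Rgs5, Cspg4 and Myh11, and none of the 10 was at 0 in all 3 libraries. In Hdac2 ECKO, Reck was at 93.6, 132 and 147 CPM in libraries where this sum was 129, 237 and 315. In WT it was at 47.3, 48.9 and 77.6 CPM at sums of 66.9, 86.6 and 123, and in beta-catenin GOF at 72.6, 75.0 and 78.4 CPM at sums of 120.9, 121.5 and 379. Within each of these 3 groups the libraries stood in the same order for Reck and for this sum, though the beta-catenin GOF sums of 120.9 and 121.5 were nearly equal. In Ezh2-labelled libraries Reck was at 131, 141 and 62.3 CPM at sums of 56.6, 59.4 and 72.8, the lowest Reck value lying at the highest sum. The 10 endothelial markers summed lower in each Hdac2 ECKO library than in any WT library, a sum that is mostly Ly6c1 (12900 CPM in WT and 8132 in Hdac2 ECKO). Of the 10, 5 had a positive fold change in Hdac2 ECKO, among them Cdh5 (0.72 on the log2 scale) and Kdr (0.68). The others were negative, the largest in size being Cldn5 (−1.10, from 1491 CPM in WT to 697 in Hdac2 ECKO). The median was 0.09, and 0 passed by edgeR. Astrocyte markers (6 genes) summed to 23.9 to 36.2 CPM in WT, 50.7 to 76.1 in Hdac2 ECKO libraries, 43.8 to 79.5 in Ezh2-labelled libraries and 37.2 to 54.1 in beta-catenin GOF, with 0 of 4 tested called in any mutant. Most of that sum was Gja1 (25.9 CPM in WT and 49.9 in Hdac2 ECKO). Of the 4 tested, 3 had a positive fold change in Hdac2 ECKO, among them Slc1a3 (3.51 CPM in WT and 8.56 in Hdac2 ECKO). Gfap, at 0.853 CPM in WT and 0.174 in Hdac2 ECKO, did not. Hemoglobin genes and Alas2 together reached 36130 to 61380 CPM in WT, 401 to 21680 in Hdac2 ECKO, 2519 to 6664 in Ezh2-labelled libraries and 510 to 35370 in beta-catenin GOF. All 5 had a negative fold change in each mutant, and only Alas2 in Hdac2 ECKO passed by edgeR. The part of pericyte and smooth muscle, astrocyte and red cell transcripts in the receptor levels was not tested.

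**Figure D5:**
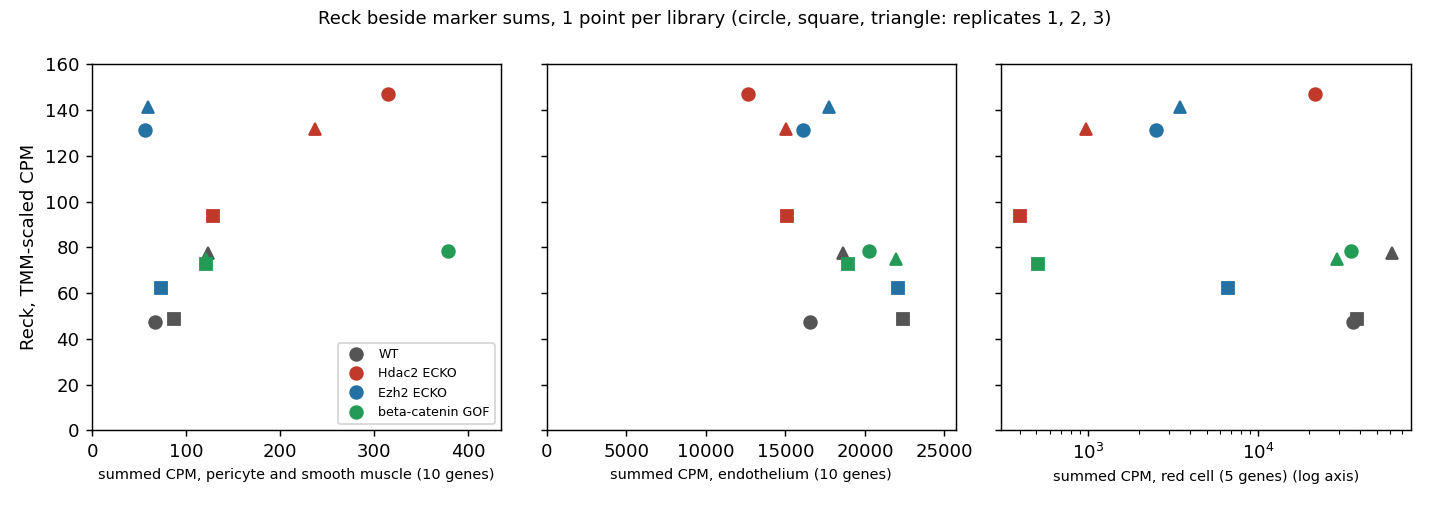
Reck in CPM against the summed CPM of pericyte and smooth muscle markers, endothelial markers and red cell markers (the last on a log axis), 1 point per library, coloured by group. The highest Reck values, 131 to 147 CPM, occur at pericyte and smooth muscle sums from 56.6 to 315 CPM. Within WT, Hdac2 ECKO and beta-catenin GOF the libraries stand in the same order for both, with nearly equal sums of 120.9 and 121.5 in beta-catenin GOF.

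Between the mutant groups, 0 of the 8 genes passed by edgeR, where 0.0239% of all genes passed for Hdac2 ECKO against the Ezh2-labelled libraries, 0.0716% for beta-catenin GOF against Hdac2 ECKO and 0.0636% for beta-catenin GOF against the Ezh2-labelled libraries. The smallest p belonged to Fzd8 in the first, with a log2 fold change of 0.74 (SE 0.58, adjusted p 0.734). It belonged to Reck in the other 2. Reck was lower in beta-catenin GOF than in Hdac2 ECKO by a log2 value of −0.72 (unadjusted p 0.0338, adjusted p 0.210) and lower than in Ezh2-labelled libraries by −0.57 (unadjusted p 0.0853, adjusted p 0.430). Both passed under limma-voom with sample quality weights (adjusted p 0.0113 and 0.0460), where 26.5% and 11.7% of all genes passed, and not by DESeq2. That Reck passed in Hdac2 ECKO and not in the other mutants is therefore not shown to be a difference between mutants by edgeR.

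The remaining genes of the pathway were read from pathway lists. Among 12 other receptor and co-receptor genes 7 could be tested, and 0 passed in any mutant. The one with the highest level, Fzd3, a Frizzled of axon guidance and planar polarity, was at 24.0 ± 5.97 CPM in WT and 16.4 ± 1.36 in Hdac2 ECKO (log2 fold change −0.55, adjusted p 0.234 by edgeR, SE 0.32), and at 23.1 ± 5.37 in Ezh2-labelled libraries and 20.3 ± 7.57 in beta-catenin GOF. Ligand transcripts were scarce in these sorted cells: 3 of 20 could be tested and 0 passed. Ndp, which encodes Norrin, had 0 to 32 counts per library and more than 3 in 4 of the 12, and Wnt7a and Wnt7b had 0 to 4 each. The ligand with the highest level was Wnt5a, a mostly non-canonical Wnt, at 13.9 ± 6.36 CPM in WT and 36.3 ± 13.0 in Hdac2 ECKO (log2 fold change 1.38, SE 0.61, adjusted p 0.130). It was at 29.3 ± 10.8 CPM in Ezh2-labelled libraries (1.08, adjusted p 0.280 by edgeR) and 36.5 ± 41.0 in beta-catenin GOF (1.39, adjusted p 0.794).

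Genes that act on or below the receptors gave few calls, and all of them were in Hdac2 ECKO, where 9.20% of all genes passed and where no gene at all passed without WT replicate 1, WT replicate 2 or Hdac2 ECKO replicate 3. Of 3 tested genes of receptor turnover, Znrf3, an E3 ligase that removes Frizzled from the surface, rose from 11.6 ± 3.66 to 27.6 ± 3.09 CPM (log2 fold change 1.26, adjusted p 0.0355 by edgeR, SE 0.31). Of 5 tested antagonists, Apcdd1, a membrane Wnt inhibitor, rose from 91.9 ± 20.9 to 175 ± 16.8 CPM (0.93, SE 0.27, adjusted p 0.0455). Both belong also to the list of 10 tested Wnt response genes, in which 3 passed, the third being Tnfrsf19, a TNF receptor family member, at 105 ± 16.6 in WT and 193 ± 24.4 CPM in Hdac2 ECKO (0.88, SE 0.26, adjusted p 0.0455). With the length and GC trend removed, Tnfrsf19 kept the call (0.80, adjusted p 0.0456), while Znrf3 (0.85, adjusted p 0.0665) and Apcdd1 (0.25, adjusted p 0.423) did not. The median log2 fold change of the response genes was 0.67 in Hdac2 ECKO, 0.48 in Ezh2-labelled libraries and 0.31 in beta-catenin GOF, and 0 passed by edgeR in the latter groups. In Hdac2 ECKO 8 of the 10 were positive, among them Axin2 (1.04, edgeR adjusted p 0.0514), which missed the threshold. Nkd1 (−1.20, adjusted p 0.148) and Sp5 (−1.11, adjusted p 0.377) were negative there, as they were in Ezh2-labelled libraries (−1.19 and −0.93). Of the 10 intracellular partners none passed, and the most abundant, Ctnnb1, was at 1157 ± 271 CPM in Hdac2 ECKO against 654 ± 138 in WT (0.82, SE 0.29, adjusted p 0.0711), and at 1102 ± 303 CPM in Ezh2-labelled libraries (0.75, adjusted p 0.131 by edgeR).

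The levels of the 8 genes over the 12 libraries were also set beside those of 7580 genes with a mean of at least 10 CPM, by the root mean square difference of log2 CPM after subtracting each gene's mean. The nearest gene to Reck was Paxbp1, at 0.085 on the log2 scale. Net1 was nearest to Fzd4 (0.14), Map4 to Lrp6 (0.11) and Mtus1 to Tspan12 (0.12). Itpkb was nearest to Adgra2 (0.21), Rcn1 to Lrp5 (0.21) and Slc23a2 to Fzd8 (0.26). None of the 8 had another of them as its nearest gene, and Fzd8 and Lrp5, below 10 CPM, were not among the 7580. The nearest of the others ranked from 16 for Adgra2 to 1039 for Lrp5. The nearest other receptor gene was Fzd4 for Reck (0.33) and for Lrp6 (0.25), Lrp6 for Fzd4 (0.25), Tspan12 for Fzd6 (0.27), Fzd6 for Tspan12 (0.27), for Adgra2 (0.28) and for Lrp5 (0.46), and Tspan12 for Fzd8 (0.42). For Lrp6 and Lrp5 that distance exceeded the gene's own SD over the 12 libraries (0.181 and 0.414). A gene that did not vary would lie nearer, so these 2 distances do not show a shared pattern. Reck and Adgra2, whose products act together on Wnt7, differed in their per-length ratio from 9.73 ± 2.39 in WT to 10.4 ± 1.69 in Hdac2 ECKO and 12.5 ± 2.70 in Ezh2-labelled libraries (SD, n = 3), with overlapping ranges of 7.83 to 12.4, 8.54 to 11.8 and 9.67 to 15.03. In beta-catenin GOF that ratio ran from 5.91 to 23.6.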

How the data were processed

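The authors deposited 1 table of whole-number counts per gene and library, with gene length in bases in another column per the file header. Per the labels' protocols, cDNA was amplified with SMART-Seq v4 PLUS and read from both ends. FastQC, cutadapt, STAR, featureCounts, DESeq2 and mm10 are named without a role in the submitters' processing notes. Annotation, strand use and filters are not given in the sources used here. The file's title calls the values normalized, but totals differ between libraries and 79.5% to 84.0% of the values from 10 to 50 are even, as happens if each mate counts, so they were treated as raw counts. Coordinates in the table match GENCODE M21 on GRCm38 for 99.1% of genes.

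Counts were tested with edgeR 4.0.16 in R 4.3.3 (TMM scaling, quasi-likelihood F test, 1 model over 12 libraries with a term per group), for the 12577 genes averaging 10 counts or more, with Benjamini-Hochberg adjustment within each of 6 contrasts (threshold 0.05). The labels name no molecular identifiers, so floors of 3 counts cover counting error only. Alternatives were no filter, a floor of 50 mean counts, median-ratio scaling, library size alone, DESeq2 1.42.0, limma-voom (limma 3.58.1) with sample quality weights, only the 2 groups compared, a replicate block, a trend in exon length and GC content removed (splines with 4 degrees of freedom, 99.17% of tested genes with a value), both together, and each library left out. Counts were simulated for Hdac2 ECKO against WT over 12577 genes, of which 200 were changed. With no length trend, edgeR recovered 51.9% of genes changed 4-fold and 4.35% of those changed 2-fold, and 6.25% of its calls were unchanged genes. With a length trend planted in Hdac2 ECKO it recovered 71.3% and 26.1%, and 84.9% of its calls were unchanged genes. With the planted trend removed, these values were 55.6%, 2.17% and 3.12%. Libraries of a group were no duplicates (chi-square of 65.2 or more per degree of freedom). Same-numbered libraries of Hdac2 ECKO and the Ezh2-labelled group deviated together (correlations across genes of 0.131 to 0.426), which pairs them for that contrast by the rule used. Unlike-numbered libraries of these groups ran from −0.297 to 0.205, so the ranges overlap. The fit reported for that contrast has no pairing term, and the replicate block is among the alternatives. The members and the lists were chosen with earlier results of these data known. Named were all members in each contrast against WT, the member with the smallest p between mutants, pathway genes past the threshold or else the most abundant of a list, the targeted genes and the nearest genes in likeness, of which 1 is not reported here. Other names in the text, such as single markers, were chosen after their values were seen.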

Additional observations from a re-analysis of the deposited data

How the results depend on the processing

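Of 240 fold changes against WT refitted with all libraries or both groups, 215 kept their direction and side of the threshold, and of 288 with 1 library left out, 260 did. The cause of the changes below was not tested. For Hdac2 ECKO against WT, 1157 genes passed (480 higher, 677 lower), and 2279 without a filter, 1826 with library size alone (1469 higher, 357 lower, with the median of all genes at 0.34 instead of 0.10), 2553 by DESeq2, 5374 by limma-voom with sample quality weights and 1832 with a replicate block. With 1 library left out the range was 0 to 2765, with 0 without WT replicate 1, WT replicate 2 or Hdac2 ECKO replicate 3 and 3 without Hdac2 ECKO replicate 1. For the Ezh2-labelled libraries against WT, 129 passed (43 higher, 86 lower), and 1367 without a filter, 219 with a mean count of at least 50, 76 with median-ratio scaling, 30 with library size alone (17 higher, 13 lower), 1280 by DESeq2, 3743 by limma-voom, 17 with only the 2 groups, 536 with a replicate block, 369 with the length and GC trend removed (164 higher, 205 lower) and 556 with both. With 1 library left out the range was 2 to 2329, the highest without Ezh2-labelled replicate 2. For beta-catenin GOF against WT the count of 0 became 157 without a filter, 38 by DESeq2, 26 by limma-voom and 0 to 4 with 1 library left out.

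For Hdac2 ECKO against the Ezh2-labelled libraries the count of 3 became 199, 98 and 11 without a filter, by DESeq2 and by limma-voom, and 1 to 4 with 1 library left out. For beta-catenin GOF against Hdac2 ECKO the count of 9 became 978, 621 and 3339 under these settings, 4 with library size alone, 1 with the trend removed, 1 with trend and replicate block, and 0 to 644 with 1 library left out. Against the Ezh2-labelled libraries the count of 8 became 359, 144 and 1466, 14 with library size alone, 13 with a replicate block, 13 with block and trend, and 1 to 732 with 1 library left out. A replicate block changed no call of the 8 genes, and same-numbered libraries of WT and a mutant did not deviate together in every pair (correlations from −0.253 to 0.111).

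Of the 8 genes, 5 passed in Hdac2 ECKO under limma-voom (Fzd4, Fzd6, Fzd8, Adgra2 and Reck), where 42.7% of all genes did, 0 with the trend removed (7.01% of all genes) and 0 to 2 with 1 library left out. In Ezh2-labelled libraries, 1 passed without a filter (6.72% of all genes), 1 by DESeq2 (10.4%), 2 by limma-voom (29.8%) and 0 to 2 with 1 library left out. In beta-catenin GOF against Hdac2 ECKO and against the Ezh2-labelled libraries, 2 and 1 passed under limma-voom, with 26.5% and 11.7% of all genes. Log2 fold changes that turned sign with the trend removed, without and with a replicate block, were those of Lrp6 in Hdac2 ECKO (−0.36 and −0.36), under the Ezh2 ECKO label (−0.34 and −0.34) and in beta-catenin GOF (−0.084 and −0.081), and in beta-catenin GOF those of Tspan12 (0.056 and 0.079) and Fzd6 (0.038 and 0.032). Fzd6 turned there also with library size alone (0.051), limma-voom (0.08) and the replicate block (0.005). Under limma-voom Fzd8 turned under the Ezh2 ECKO label (0.29) and in beta-catenin GOF (0.17), and with the block Lrp5 turned under the Ezh2 ECKO label (0.014). With 1 library left out, the log2 fold changes that crossed 0 ran from −0.018 to 0.34 for Tspan12 in Hdac2 ECKO. Under the Ezh2 ECKO label they ran from −0.91 to 0.31 for Fzd8, −0.21 to 0.26 for Lrp5 and −0.052 to 0.30 for Tspan12. In beta-catenin GOF they ran from −0.12 to 0.20 for Fzd6, −0.64 to 0.14 for Fzd8, −0.78 to 0.056 for Lrp5, −0.002 to 0.14 for Lrp6, −0.26 to 0.036 for Tspan12 and −0.095 to 0.77 for Adgra2. Depth limits Lrp5 and Fzd8, with 28 to 186 counts a library, more than the other genes. The simulated recovery of 2-fold changes by edgeR was 4.35% without a length trend and 26.1% with one planted. The simulation changed 200 genes drawn from all levels, where 1157 passed in the data. These shares therefore do not give the recovery for the 8 genes, in any of which a change of that size could still be missed.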
